A study of Linum usitatissimum with 8 samples.

Results

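Of the 38306 annotated genes in a read-count table of developing flax seeds, 68 formed a group whose level stood higher at each later stage. They were chosen by their measured levels, in CPM (the count of a gene divided by the library's total count and multiplied by 1000000), averaged over the 2 libraries of a stage. A member had to reach a mean of at least 50 CPM at DAP30, at least 2 times the DAP5 mean at DAP10, at least 2 times the DAP10 mean at DAP20, and between 1.5 and 3 times the DAP20 mean at DAP30. Because these means chose the genes, the levels and ratios below describe the group and are no evidence that it exists. Of 2212 further gene models, those with newGene in their ID, 35 reached 50 CPM at DAP30 and 0 met the remaining limits.

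All libraries were made from total RNA of seed of flax (Linum usitatissimum) with the source name Heiya No.14. Their stage labels read DAP5, DAP10, DAP20 or DAP30, and no treatment is named. These abbreviations are not spelled out there. Each stage had 2 replicates, and nothing says whether they came from separate plants, so the spread between them may be technical. The 8 libraries held 12951493 to 27691831 counts, the fewest at DAP10 and the most at DAP5.

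As a flax seed develops, its embryo grows at the expense of the endosperm, its cells fill with oil and storage protein, and late in maturation the seed prepares for drying. Transcripts that serve reserve deposition and desiccation tolerance are known to build up in order during these phases. The table gives gene IDs without names, no annotation was used here, and the members are therefore described by ID, with no role given to any of them. For the same reason the seed label could not be checked against marker genes. In bulk seed RNA a change in the number of cells of a type and a change in RNA per cell cannot be told apart.

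The level of the median member was above 200 CPM at DAP30 and near 1 CPM at DAP5. At DAP5 the median member had 0.792 CPM in replicate 1 and 1.21 CPM in replicate 2. The medians were 8.78 and 8.76 CPM at DAP10, 104 and 126 CPM at DAP20, and 217 and 244 CPM at DAP30. Over the same libraries the median of all 28749 genes that passed the filter on low counts ran the other way, at 13.2 and 13.9 CPM at DAP5, 10.4 and 10.3 CPM at DAP10, 7.06 and 6.72 CPM at DAP20, and 5.61 and 5.19 CPM at DAP30. All 68 members passed that filter. In the replicate 1 and 2 libraries 12 and 13 members had at least 10 CPM at DAP5, and 33 and 31 had it at DAP10. All 68 had it in every DAP20 and DAP30 library.

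Summed over the members, the share of all counts was 0.0602% and 0.0582% in the DAP5 libraries and 0.209% and 0.181% in the DAP10 libraries. It was 2.80% and 3.08% at DAP20 and 6.37% and 7.12% at DAP30. The stages did not overlap in this share, which the choice of members fixes. Lus10011972.g.BGIv1.0 alone held 28.6% of the members' CPM at DAP30, and together with Lus10014280.g.BGIv1.0 it held 44.1%. The 10 members with the highest CPM held 75.9%. Without these 2 genes the remaining 66 members still summed to 3.62% and 3.91% of the counts at DAP30, against 0.0525% and 0.0483% at DAP5. CPM is a share of the counts of a library, so a gene can be higher in CPM because other genes are lower.

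**Figure D1:**
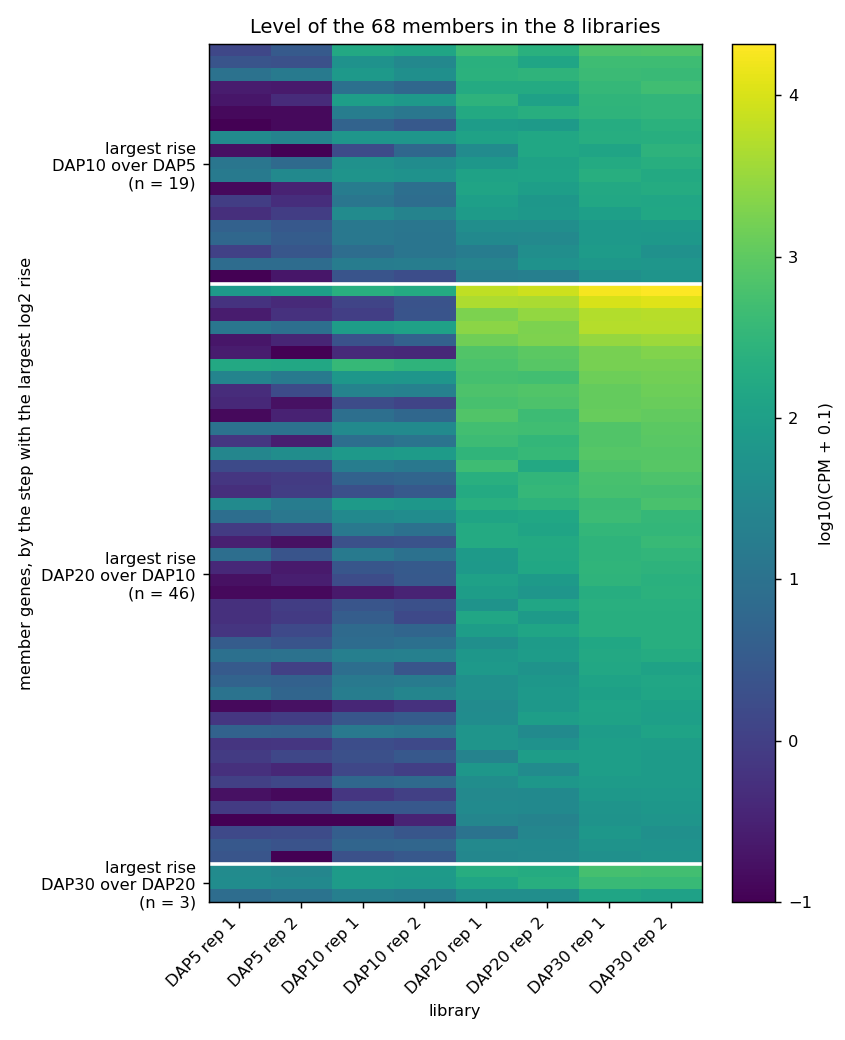
Level of the 68 members (rows) in the 8 libraries (columns), coloured by log10(CPM + 0.1) and grouped by the step with the largest log2 rise, each group sorted by its DAP30 mean. The colour changes most between the DAP10 and DAP20 columns for the middle group of 46 genes, and earlier for the upper group of 19.

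The rise was not spread evenly over the 3 steps, which are themselves unequal. By the numbers in the stage labels the first step is shorter than each later one, and no ratio here is scaled for that. The median ratio of means was 4.32 for DAP10 over DAP5, 12.6 for DAP20 over DAP10 and 2.15 for DAP30 over DAP20, the last held between 1.5 and 3 by the rule. Its quartiles were 2.70 and 14.2 for the first step and 3.67 and 40.6 for the second. The DAP20 mean was at least 10 times the DAP10 mean in 36 members and at least 100 times in 9, while the DAP10 mean was at least 10 times the DAP5 mean in 22. For the median member 48.3% of the log2 rise from DAP5 to DAP30 fell between DAP10 and DAP20, with a range of 11.6% to 78.2%. In all, 15 members stayed below a ratio of 4 in every step. Over the whole span the median ratio was 218, with 21 members at 1000 or more and 10 below 20.

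By the step with the largest log2 ratio the members divided into 3 sets. The rule shapes this division, since it holds the last ratio below 3 and sets no upper limit on the earlier ones. In 46 of them the largest ratio was that of DAP20 over DAP10, and this set held 6.20% of all counts at DAP30. Its median log2 ratios were 1.98, 4.56 and 1.12 over the 3 successive steps. In 19 members the largest ratio was that of DAP10 over DAP5, with medians of 4.29, 1.70 and 0.85, and these genes held 0.438% of all counts at DAP30. The remaining 3 members, Lus10003437.g.BGIv1.0, Lus10007168.g.BGIv1.0 and Lus10029402.g.BGIv1.0, had their largest ratio last, at DAP30 over DAP20. With 1 CPM added to all means, which weighs low levels less, the largest step was DAP20 over DAP10 for 55 members and DAP10 over DAP5 for 10.

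**Figure D2:**
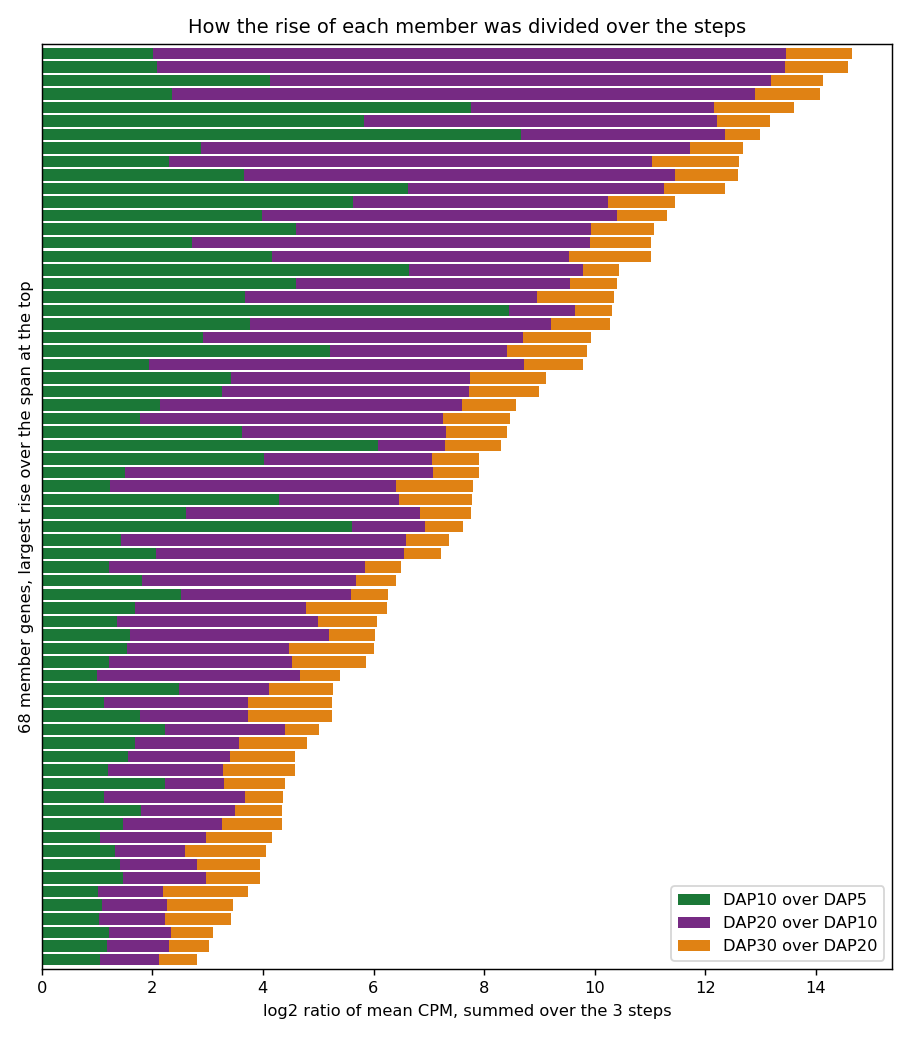
Each bar is 1 member, and its 3 parts are the log2 ratios of mean CPM for DAP10 over DAP5, DAP20 over DAP10 and DAP30 over DAP20, with bars sorted by their sum. The middle part is the longest in 46 of the 68 bars, and the last part is of similar length in all of them because the rule bounds it.

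Of the 3 members with the highest levels per length, 2 were near absent at DAP5. Levels between genes are compared here as CPM per kb of the deposited gene length, a length the sources used here do not define. Lus10014280.g.BGIv1.0, with a length of 797, reached 13118 ± 1353 CPM per kb at DAP30 (SD, n = 2) and ranked 2 among the 38306 annotated IDs by that measure. Its CPM was 0.491 and 0.325 at DAP5, then 1.12 and 2.16 at DAP10, 4699 and 4470 CPM at DAP20, and 9693 and 11218 at DAP30. Each later stage lay above the one before it in both libraries. The largest ratio of means was that of DAP20 over DAP10, 2792, which made up 78.2% of the log2 rise. In the fit over all genes, which scales the libraries differently, that step had a log2 fold change of 11.85 ± 0.55 (SE).

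Lus10025983.g.BGIv1.0 ranked 4 at DAP30, with 7376 ± 868 CPM per kb (SD, n = 2) and a length of 441, the shortest of the members. It had 0.113 and 0.253 CPM at DAP5, 2.05 and 4.32 CPM at DAP10, 1441 and 1991 CPM at DAP20, and 2982 and 3524 CPM at DAP30. These 2 genes also had the widest spans among members with at least 10 counts at DAP5, with DAP30 over DAP5 ratios of 25640 and 17776. The DAP5 means behind those ratios rest on 22 and 10 counts.

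Lus10011972.g.BGIv1.0 ranked 8, with 5515 ± 605 CPM per kb at DAP30 (SD, n = 2), and unlike the previous pair it was already well detected at DAP5. Its CPM was 76.0 and 98.0 at DAP5, 229 and 180 at DAP10, 6490 and 8235 CPM at DAP20, and 17820 and 20815 at DAP30. The libraries of each stage stood apart from those of the next, and the middle step was again the largest, with a ratio of 36.01. In all, 13 of the 68 members were among the 100 annotated IDs with the most CPM per kb at DAP30, and 46 were among the first 1000. The lowest member by this measure, Lus10004284.g.BGIv1.0, had 18.8 ± 2.87 CPM per kb (SD, n = 2), and the median member had 161.

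At the other end were genes that rose by small ratios from a level already present at DAP5. The narrowest span was that of Lus10019506.g.BGIv1.0, with 36.9 and 23.4 CPM at DAP5, 62.4 and 63.4 at DAP10, 115 and 148 CPM at DAP20, and 201 and 221 at DAP30, a DAP30 over DAP5 ratio of 7.0. For Lus10012728.g.BGIv1.0 the values were 15.2 and 32.7 CPM at DAP5, 57.4 and 51.5 at DAP10, 115 and 122 CPM at DAP20, and 218 and 171 at DAP30, a ratio of 8.13. In both genes no 2 stages overlapped, although the DAP5 libraries of the second differed 2.16-fold.

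The most even climbs, judged by ratio per step whatever the length of the step, had nearly the same ratio in every step. Lus10003437.g.BGIv1.0 had ratios of 2.13, 2.27 and 2.28 over the 3 successive steps. Its CPM was 38.5 and 33.7 at DAP5, 82.5 and 70.7 at DAP10, 135 and 213 CPM at DAP20, and 402 and 391 at DAP30. For Lus10039660.g.BGIv1.0 the ratios were 2.05, 2.28 and 2.28. This gene had 165 and 155 CPM at DAP5, 363 and 293 at DAP10, 637 and 862 CPM at DAP20, and 1723 and 1689 at DAP30. It was the member with the highest DAP5 mean, 160 CPM.

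At the low end the first ratio is poorly known. Summed over both DAP5 libraries, 14 members had fewer than 10 counts, and 3 of these also had fewer than 10 counts over both DAP10 libraries, namely Lus10029516.g.BGIv1.0, Lus10041750.g.BGIv1.0 and Lus10009211.g.BGIv1.0. The largest ratio of the first step, that of Lus10002197.g.BGIv1.0, compares 428 counts at DAP10 with 2 at DAP5. Scaled to depth, the pooled counts give 413, and the exact binomial 95% interval runs from 114 to 3419. Lus10041750.g.BGIv1.0 had 5 counts at DAP10 and 2 at DAP5, a pooled ratio of 4.82 with an interval of 0.789 to 50.6, which includes no difference. These intervals cover counting error only.

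Lus10009211.g.BGIv1.0 was the single member with no count in either DAP5 library. It had 0 and 0.232 CPM at DAP10, the second value being 3 counts, then 27.4 and 24.2 CPM at DAP20 and 54.8 and 59.2 CPM at DAP30. Against a floor of 3 counts over both DAP5 libraries, 0.0554 CPM, its DAP30 level was at least 1029-fold higher. DAP20 over DAP10 gave a pooled ratio of 243, and its interval ran from 82.8 to 1178. Whether the gene differed between DAP10 and DAP5 was not detectable at this depth.

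All 68 members were also run in the fit over all genes, with edgeR's quasi-likelihood test and a false discovery rate (FDR, Benjamini-Hochberg adjusted over 28749 genes) below 0.05. The rule used the same contrasts, so nothing is read from these counts. For DAP10 over DAP5, 60 members were called higher, where 12.4% of all genes tested were. For DAP20 over DAP10 it was 68 members and 25.5% of all genes, and for DAP30 over DAP20 it was 47 members and 15.1%. Each of the wider pairs called all 68 members higher, against 29.0% of all genes for DAP20 over DAP5, 29.3% for DAP30 over DAP10 and 31.3% for DAP30 over DAP5. Across the 4 stages jointly 68 members were called, as were 79.0% of all genes. No member was called lower in any pair.

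The median fitted log2 fold change of the members was 2.42 for DAP10 over DAP5, 4.04 for DAP20 over DAP10 and 1.20 for DAP30 over DAP20. Over all genes tested the medians were -0.015, -0.032 and -0.041. The fit scales libraries by TMM (trimmed mean of M values), on the assumption that most genes are unchanged. This raises the ratios above those of plain CPM by 1.30, 1.31 and 1.07 times in the 3 steps. Of the 28749 genes tested, 6772, 15323 and 9338 were called in these steps, counting higher and lower together. The assumption is therefore doubtful, most of all for DAP20 over DAP10. With library totals in the fit, the medians of all genes were -0.395, -0.425 and -0.139, and those of the members were 2.07, 3.65 and 1.10. The members were higher at the later stage under either scaling, which the rule fixes and which supports nothing. The rule used library totals, and TMM only raised those ratios further.

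In 43 members all 3 steps were called, in 21 members 2 steps, and in 4 members only the step from DAP10 to DAP20. The 4 were Lus10002842.g.BGIv1.0, Lus10014437.g.BGIv1.0, Lus10014508.g.BGIv1.0 and Lus10024502.g.BGIv1.0, and of these Lus10014437.g.BGIv1.0 and Lus10014508.g.BGIv1.0 are named because of this result. The last step was the one most often not called. Its 21 uncalled members had ratios of 1.52 to 2.52 and a median of 1.80, and its 47 called members had ratios of 1.55 to 2.995 and a median of 2.28, so the 2 ranges overlapped over most of their width. The count for this step was 24 without DAP30 replicate 1 and 17 without DAP30 replicate 2, where the stage rests on 1 library.

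Among the 8 members not called for DAP10 over DAP5 were the 3 with fewer than 10 counts at both stages. A different case was Lus10002842.g.BGIv1.0, with 64 counts in DAP5 replicate 1 and none in replicate 2, which is 2.42 and 0 CPM. It had 1.98 and 2.86 CPM at DAP10, 29.2 and 32.5 CPM at DAP20, and 47.3 and 53.9 CPM at DAP30. DAP5 replicate 1 thus lay between both DAP10 libraries, and the mean ratio of 2.003 for this step rests on averaging it with a library at 0.

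Both libraries of the later stage lay above both of the earlier one in 65 members for DAP10 over DAP5, in 68 for DAP20 over DAP10 and in 66 for DAP30 over DAP20. Of all genes tested, 20.9%, 26.5% and 27.6% did so in these 3 steps. In 63 members it held in all 3 steps, against 2.11% of all genes. The choice of members favours this count, and it supports nothing. The 5 exceptions were Lus10002842.g.BGIv1.0, Lus10009211.g.BGIv1.0, Lus10014508.g.BGIv1.0, Lus10024502.g.BGIv1.0 and Lus10029432.g.BGIv1.0.

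The rule used the mean of the 2 libraries of a stage and set no limit on their difference, though a wide difference can move a gene across a limit. The difference was narrower at DAP30 than at DAP20. At DAP30 the libraries differed by more than 1.5 times in 2 of 68 members, against 27 of 68 at DAP20. The 2 were Lus10029432.g.BGIv1.0 and Lus10006444.g.BGIv1.0, the second named because of this count. The median ratio between libraries, taken without direction, was 1.15 at DAP30 and 1.37 at DAP20. Among all genes that averaged 10 CPM or more the same medians were 1.14 at DAP30 and 1.21 at DAP20. The libraries were more than 1.5 times apart in 851 of 11491 such genes at DAP30 and in 2596 of 12324 at DAP20. Some further genes met the DAP30 level and both doublings but not the last bounds. In 152 of these, with a DAP30 over DAP20 ratio below 1.5, the medians were 1.21 at DAP30 and 1.37 at DAP20, the latter like the members. In 27, with a ratio of 3 or more, they were 1.13 and 1.30. Among the members that reached 10 CPM at the earlier stages, the median was 1.53 for 12 members at DAP5 and 1.18 for 32 members at DAP10, against 1.15 and 1.09 for all genes. Genes are not replicates, and no test was made of these differences.

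The direction of the difference varied with the stage. At DAP5, 5 of 12 members (41.7%) were higher in replicate 2, against 57.2% of all genes. At DAP10 it was 8 of 32 members (25%), against 50.1% of all genes, and the members' median log2 ratio of replicate 2 over replicate 1 was -0.22. At DAP20, 39 of 68 members were higher in replicate 2 and 29 in replicate 1, with a median log2 ratio of 0.15 for replicate 2 over replicate 1, against 50.1% of all genes higher in replicate 2 and a median of 0.001. By more than 1.5 times, 18 members were higher in replicate 2 and 9 in replicate 1. At DAP30, 60.3% of the members were higher in replicate 2, against 34.6% of all genes, with medians of 0.11 and -0.10. With TMM scaling the share at DAP30 was 73.5% of the members, against 44.8% of all genes. These directions at DAP10, DAP20 and DAP30 were not particular to the members. On library totals, 25 of 116 genes below the last bounds (21.6%) were higher in replicate 2 at DAP10. In the same set it was 93 of 152 (61.2%) at DAP20 and 118 of 152 (77.6%) at DAP30. Among genes above the bounds it was 6 of 12 at DAP10, 11 of 27 at DAP20 and 13 of 27 at DAP30.

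**Figure D3:**
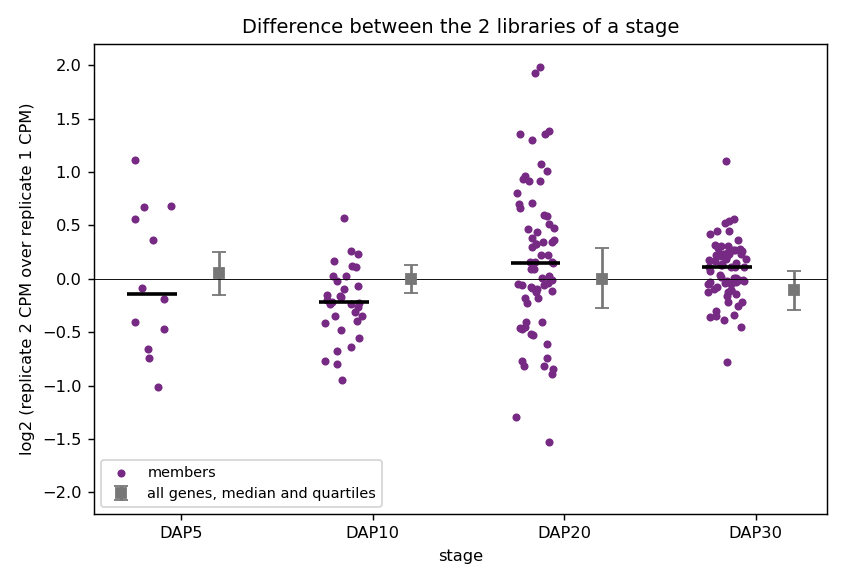
Log2 ratio of replicate 2 over replicate 1 in CPM at each stage, for members with a mean of at least 10 CPM there (points, with the median as a bar) and for all genes with that mean (square with quartiles). The points run from -0.78 to 1.10 at DAP30 and from -1.53 to 1.98 at DAP20, on both sides of 0.

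Where the stage mean was at least 10 CPM, the largest gaps between libraries were at DAP20. Lus10029432.g.BGIv1.0 had 37.3 and 147 CPM there, a 3.95-fold gap, and replicate 2 was also the higher library at DAP10, with 1.52 and 5.95 CPM, and at DAP30, with 126 and 270 CPM. Its higher DAP20 library lay above its lower DAP30 library. Lus10024502.g.BGIv1.0 had 23.9 and 90.8 CPM at DAP20, a 3.79-fold gap, with 0.755 and 1.23 CPM at DAP5, 1.85 and 2.78 at DAP10, and 96.5 and 83.02 at DAP30. Against DAP20 replicate 2 alone its DAP30 mean was 0.989 times as high, the only member not higher than that library. In the opposite direction Lus10004182.g.BGIv1.0, named after its values were seen, had 462 CPM in DAP20 replicate 1 and 160 in replicate 2, with 729 and 882 CPM at DAP30.

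For some of the members, but not for most, the last limit was met or missed according to the DAP20 library used. Against DAP20 replicate 1 alone, 52 of the 68 members had a DAP30 mean between 1.5 and 3 times as high, and against replicate 2 alone 55 did, with 41 meeting it against both. Without DAP20 replicate 1 the rule picked 63 genes, 53 of them members, and without DAP20 replicate 2 it picked 70 genes, 47 of them members. Leaving out any of the other 6 libraries gave 60 to 74 genes, 57 to 64 of them members.

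The rule can also be applied to the libraries of 1 replicate and the outcome read in those of the other. Its limits were set on all 8 libraries, so the counts that follow describe how far the replicates resembled each other and support nothing. On the replicate 1 libraries alone 69 genes passed. In the replicate 2 libraries 60 of these 69 (87.0%) were higher at every step, where 4.61% of all genes tested were. In the opposite direction 62 genes passed on replicate 2 alone, and 54 of them (87.1%) were higher at every step in replicate 1, against 6.41% of all genes. All genes tested include many at levels far below 50 CPM, so the background is not matched on level.

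Of the genes chosen on either replicate, 27 passed the rule in both, which is 39.1% of the 69 and 43.6% of the 62. For the 69 genes chosen on replicate 1, the median of DAP30 over DAP20 was 1.91 in replicate 2, with a range of 0.641 to 9.25. For the 62 genes chosen on replicate 2 it was 2.05 in replicate 1, with a range of 0.861 to 4.79. Among the 69 genes, 26 missed the lower bound of 1.5 in replicate 2, 15 the doubling from DAP5 to DAP10 and 8 the upper bound of 3. Among the 62 genes the order differed, with 10 missing the lower bound in replicate 1, 11 that doubling and 12 the upper bound.

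The upper and lower bounds of the last step cut the members out of a continuous range. In all, 247 annotated genes met the DAP30 level and both doublings. Of these, 68 had a DAP30 over DAP20 ratio within the bounds, 152 were below 1.5 and 27 were at 3 or more. Of the 152, 97 had a lower mean at DAP30 than at DAP20. The median DAP30 over DAP20 ratio was 2.15 in the members, 0.844 in the 152 genes below the bounds and 4.37 in the 27 above them, as the bounds require.

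Within these sets the share of counts developed differently, again by construction at the last step. The members held 6.74% ± 0.527 of all counts at DAP30 and 2.94% ± 0.195 at DAP20 (SD, n = 2). The 152 genes below the bounds held 9.73% ± 1.24 at DAP30 and 13.2% ± 0.335 at DAP20 (SD, n = 2). The 27 genes above them held 4.24% ± 0.276 at DAP30 and 1.11% ± 0.00571 at DAP20 (SD, n = 2). Between the first 2 steps alone, the ratio of DAP20 over DAP10 was the larger in 48 of 68 members, 80 of 152 genes below and 19 of 27 genes above. No test was made of these shares.

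**Figure D4:**
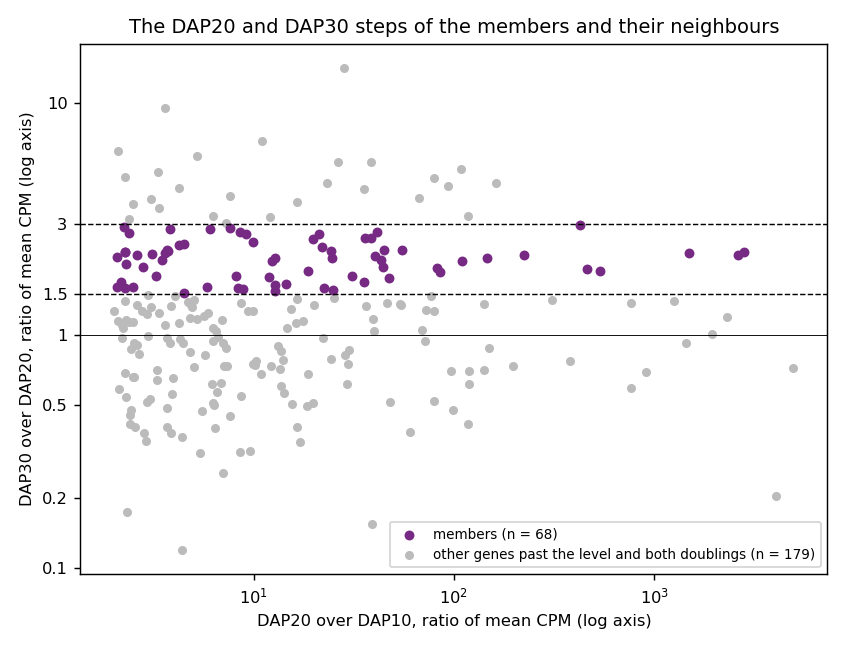
Ratio of mean CPM for DAP30 over DAP20 against that for DAP20 over DAP10, both on log axes, for the 68 members and the other 179 genes that met the DAP30 level and both doublings, with dashed lines at the bounds of 1.5 and 3. The members lie in the band between the lines from low to high values of the DAP20 over DAP10 ratio, but do not fill it where that ratio is high. Other genes continue without a gap on either side of the band.

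Genes just inside and just outside each limit differed by little. At the DAP30 level Lus10004284.g.BGIv1.0 was inside with 50.3 CPM and Lus10031255.g.BGIv1.0 outside with 48.8 CPM. For DAP10 over DAP5 the ratio was 2.003 in Lus10002842.g.BGIv1.0 and 1.997 in Lus10012049.g.BGIv1.0, and for DAP20 over DAP10 it was 2.08 in Lus10002645.g.BGIv1.0 and 1.99 in Lus10031730.g.BGIv1.0. At the lower bound of DAP30 over DAP20 the values were 1.52 in Lus10038684.g.BGIv1.0 and 1.49 in Lus10032236.g.BGIv1.0. Next to the upper bound stood Lus10041750.g.BGIv1.0 with 2.995 and Lus10001194.g.BGIv1.0 with 3.04. Apart from the last step, 310 genes missed only the doubling from DAP5 to DAP10, 61 only that from DAP10 to DAP20 and 46 only the DAP30 level.

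The number of genes that met the rule moved more with the scaling of the libraries than with any single library. On TMM-scaled CPM 121 genes met the rule, 63 of them members. The 5 members not among them, Lus10007168.g.BGIv1.0, Lus10012070.g.BGIv1.0, Lus10023630.g.BGIv1.0, Lus10030334.g.BGIv1.0 and Lus10041750.g.BGIv1.0, then exceeded the upper bound of 3. Of the 58 genes that met the rule on TMM-scaled CPM only, 31 had missed the first doubling with library totals, 20 the second, 15 the lower bound of the last step and 9 the DAP30 level.

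The rule did not use gene length directly. The members' deposited lengths ran from 441 to 3505 with a median of 1743, against a median of 2305 for the 3532 annotated genes with a DAP30 mean of at least 50 CPM and 1610 for all annotated genes. Lengths below 1000 were found for 13 of 68 members (19.1%), against 8.75% of those 3532 genes and 29.7% of all annotated genes. The members were thus shorter than the genes at that level, but not than all annotated genes. The genes on either side of the last bounds were also shorter than the 3532. In the 152 below the bounds 17.8% were below 1000 and the median was 1596, and in the 27 above them the values were 29.6% and 1379. A shorter length than that of the 3532 genes was thus not particular to the members, and no test was made. The medians were alike in the set with the largest rise at DAP20 over DAP10, 1769, and in that with the largest rise at DAP10 over DAP5, 1717.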

How the data were processed

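For 8 flax seed libraries the authors deposited raw gene counts, as whole numbers in 1 table, with a gene length in a further column per the file headers. The sources used here name no aligner, counting tool, genome build or use of strand, so reads shared by near-identical or overlapping genes could not be recognised. Libraries were matched to stages by the code in each sample's description. Levels of the members are CPM on library totals. In step ratios a stage with no count stands as 0.5 counts over its 2 libraries. The fit used edgeR 4.0.16 in R 4.3.3, with filterByExpr (count 10, total 15), TMM scaling, and glmQLFit and glmQLFTest with stage as the only term over all 8 libraries. Standard errors were derived as the size of the log2 fold change over root F. The code was tested on simulated data. DESeq2 1.42.0, other scalings and filters, fits of the compared stages alone and left-out libraries served as alternatives.

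The members, the rule for named genes and the alternatives were chosen with earlier results of these data known. Named were the 3 members with the highest CPM per kb at DAP30, the 2 with the widest and the 2 with the narrowest span (the widest among members with at least 10 counts at DAP5), the 2 most even, the 2 with the largest replicate gap at a mean of at least 10 CPM, any with no count at DAP5, and the nearest gene on each side of each of the 5 limits. Other IDs complete small counts and were named after their values were seen. Gene lists and marker lists by product name, and promoter motifs, were not run, since no names or sequences were used here.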

Additional observations from a re-analysis of the deposited data

How the results depend on the processing

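With each library left out in turn, the members called numbered 44 to 62 for DAP10 over DAP5, 63 to 68 for DAP20 over DAP10 and 17 to 52 for DAP30 over DAP20, and 68 in each of the wider pairs and across the 4 stages. The stage with 1 library is then assumed to vary like the others. With all libraries kept, the counts for these 3 steps ran from 59 to 66, stood at 68, and ran from 36 to 60 over library totals, RLE size factors, DESeq2, no filter, the compared stages alone and the replicate block. DESeq2 gave the most calls in the first and last step, 66 and 60, and library totals the fewest, 59 and 36. For the rule itself, TMM scaling gave 121 genes, while left-out libraries gave 60 to 74, both replicate sets taken alone 62 to 69, a DAP30 minimum of 25 CPM 82 genes, a minimum of 100 CPM 53, and geometric means 70. With TMM scaling the members' summed share was 0.0417% at DAP5, 3.54% at DAP20 and 8.71% at DAP30, in place of 0.0592%, 2.94% and 6.74%, and the share higher in DAP30 replicate 2 was 73.5%, against 44.8% of all genes. With 1 CPM added to all means, 10 members in place of 19 had their largest rise in DAP10 over DAP5. Under TMM scaling 1 member in place of 3 had it in DAP30 over DAP20. The cause of these shifts was not tested beyond the scaling itself. No fitted log2 fold change of a named member reversed under the alternatives run, which supports nothing, since the rule used the same contrasts. For DAP10 over DAP5 the lowest value among the members fell to 0 without DAP10 replicate 2. Without DAP5 replicate 2 it fell to 0.335.

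The replicate numbers are shared by the stages, but no label says that they pair libraries, and deviations of same-numbered libraries correlated between stages at 0.001 to 0.116. With the replicate number as a block, 61, 68 and 46 members were called in the 3 steps. Depth limits the DAP5 and DAP10 values of members with fewer than 10 counts.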
